A study of Rattus norvegicus with 10 samples.

Results

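Gata2, Gata3, Gata4, Gata6 and Tal1, 5 transcription factor genes, were examined in all 10 RNA-seq libraries of rat primary neuron cultures treated with inhibitors of histone deacetylases (HDACs). The rule named 7 genes, Gata1 to Gata6 and Tal1, and these 5 could be found by identifier among the 32883 genes of the table, whereas Gata1 and Gata5 were not analysed here. The genes were chosen because their levels were known to be higher with the inhibitors, so their changes with each inhibitor are given as a description with no test. Only the difference between the inhibitors and the difference between the control groups were tested. The choice did not use these differences, but it rests on the same libraries.

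The cultures were prepared from the cortex of newborn Wistar rats, held neurons together with glia, and received the inhibitor on day 14 in vitro without a later washout. Trichostatin A (TSA), a hydroxamate HDAC inhibitor, was applied at 100 nM for 19 h in 3 libraries, with 3 libraries of control cultures. Sodium butyrate (NaB), a short-chain fatty acid that inhibits the same class of enzymes, was applied for 24 h in 2 libraries, with 2 control libraries of their own. The labels of the NaB libraries name a dose of 5 µM, while the methods and results text has millimolar in place of micromolar. The methods also describe NaB as effective in the millimolar range, but the values here do not settle the dose. The NaB libraries came from a separate project, so drug, incubation time and project cannot be told apart when the experiments are compared. Control and treated cultures of a pair came from the same plate. The libraries held 26070908 to 27649249 reads, and 3 reads of a gene, taken as the limit of detection, corresponded to 0.109 to 0.115 CPM (a gene's share of all reads, scaled per library), a limit that covers counting error only. Values below are normalized counts, that is, reads divided by 1 size factor per library. Genes are not compared with each other by level, since the values are not scaled to gene length. RNA came from whole cultures, so that a change in the number of cells that express a gene and a change in RNA per cell cannot be told apart. None of the neuron, astrocyte and oligodendrocyte markers had an identifier at hand, so the labelled cell type was not checked against them here.

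Gata factors are zinc finger transcription factors that bind DNA words with a GATA core, and Tal1 is a basic helix-loop-helix factor that binds E-boxes together with E-proteins. In blood cell precursors Gata1 or Gata2 and Tal1 sit on DNA in a shared complex with Lmo2 and Ldb1. In the embryonic nervous system Gata2, Gata3 and Tal1 take part in the specification of inhibitory neurons of the spinal cord and midbrain, and Gata2 and Gata3 also act in serotonergic neurons, while Gata4 and Gata6 are best known for heart and endoderm development.

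Promoter sequence was not used to choose the genes and is shown here because the members had low or undetectable levels in control cultures. RefSeq windows on the GRCr8 build, from 250 bases before to 50 bases after the start of the gene, were at hand for 5 of the 7 genes, namely Gata1, Gata2, Gata3, Gata6 and Tal1. The 250 upstream bases of the 3 genes active in inhibitory neurons are printed 5′ to 3′ on the + strand, with CpG dinucleotides in capitals. They lie at chr4:122216031-122216280 for Gata2, chr17:73553298-73553547 for Gata3 and chr5:133824214-133824463 for Tal1.
Gata2: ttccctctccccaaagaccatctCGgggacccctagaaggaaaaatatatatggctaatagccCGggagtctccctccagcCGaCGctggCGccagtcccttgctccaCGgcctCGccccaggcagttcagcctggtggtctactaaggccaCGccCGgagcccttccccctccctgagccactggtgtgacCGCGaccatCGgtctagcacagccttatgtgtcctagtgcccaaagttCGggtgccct
Gata3: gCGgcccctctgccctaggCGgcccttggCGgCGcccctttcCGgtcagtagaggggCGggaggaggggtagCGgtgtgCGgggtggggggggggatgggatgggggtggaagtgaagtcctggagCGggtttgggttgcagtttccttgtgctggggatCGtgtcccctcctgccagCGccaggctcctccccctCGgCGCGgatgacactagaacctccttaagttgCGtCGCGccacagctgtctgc
Tal1: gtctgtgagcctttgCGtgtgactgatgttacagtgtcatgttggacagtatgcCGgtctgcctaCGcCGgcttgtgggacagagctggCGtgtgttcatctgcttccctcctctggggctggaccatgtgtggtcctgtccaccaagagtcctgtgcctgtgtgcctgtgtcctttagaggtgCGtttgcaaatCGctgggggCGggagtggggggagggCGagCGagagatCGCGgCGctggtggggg

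The Gata2 window of 300 bases held 16 CpG dinucleotides, the Gata3 window 20 and the Tal1 window 16. Their ratios of observed to expected CpG were 0.592, 0.650 and 0.645, above the median of 0.392 over all 33469 promoter windows. Of all windows, 65.1%, 69.0% and 68.7% had a lower ratio. The windows include uncharacterised loci and several windows for some genes, so that this median is not a median over genes. The Gata6 window held 12 CpG with a ratio of 0.385, close to that median. Gata1, the erythroid member of the family, stood apart with 3 CpG and a ratio of 0.114. GC content was 61.3% for Gata2, 65.0% for Gata3, 64.7% for Gata6, 59.3% for Tal1 and 60.7% for Gata1, against a median of 51.7% over all windows. Words for the factors themselves were searched on both strands. AGATAA or TGATAA was present in 18.9% of all windows and in none of the 5. With AGATAG and TGATAG added, a choice made after the data were seen, 30.3% of all windows held a word, and among the 5 only Gata3 did, with 1 match. The E-box CANNTG was present in 72.1% of all windows, with 3 matches for Tal1, 1 for Gata3 and none in the other 3. These matches describe letters in the windows, not bound sites.

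**Figure D1:**
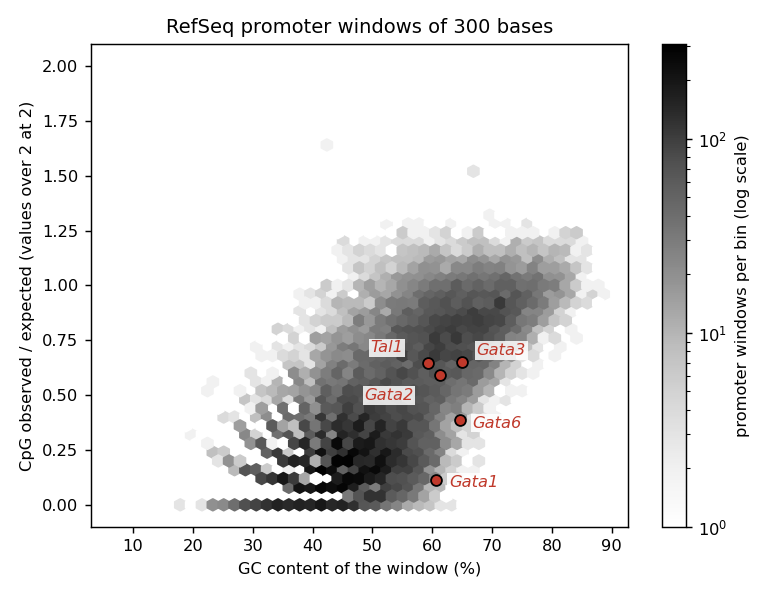
GC content (x axis, percent) against the observed to expected ratio of CpG (y axis) in RefSeq promoter windows of 300 bases, with grey shading for the number of all windows per bin on a log scale and red points for the members. Gata2, Gata3 and Tal1 lie between ratios of 0.592 and 0.650, and Gata1 lies at 0.114.

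Gata2 (ENSRNOG00000012347), a factor of blood stem cells, mast cells and several neuron types, was close to undetectable in the controls for TSA, with normalized counts of 0, 1.03 and 2.13. With TSA it reached 169, 77.8 and 158. NaB-treated cultures had 88.8 and 94.5, against 2.07 and 8.35 in their controls. Every treated library lay above every control of its experiment. The mean of 135 ± 49.8 (SD, n = 3) with TSA was at least 42.8-fold higher than the level of 3 reads in its controls. With NaB the mean was 91.7 ± 3.99 (SD, n = 2) against 5.21 ± 4.44 (SD, n = 2), a ratio of 17.6. On the log2(normalized count + 1) scale the difference from controls was 6.12 (SE 0.52) with TSA, which 11 of the 15717 tested genes exceeded, and 4.11 (SE 0.64) with NaB, which 138 exceeded. These values moved with the method and the pseudocount, and the one for TSA was 7.00 with DESeq2 and 4.47 with a pseudocount of 5. Without control_NaB replicate 4 the difference with NaB was 3.31, and without control_NaB replicate 5 it was 4.91.

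Gata3 (ENSRNOG00000019336), known for type 2 helper T cells and for neurons of the hindbrain, had normalized counts of 1.05, 0 and 0 in the controls for TSA. With TSA the counts were 30.0, 11.8 and 36.9. NaB-treated cultures had 18.9 and 30.9, against 3.11 and 8.35 in their controls. Treated and control libraries did not overlap with either drug. The mean with TSA, 26.2 ± 13 (SD, n = 3), was at least 8.32-fold higher than 3 reads, and the mean with NaB, 24.9 ± 8.45 (SD, n = 2), was 4.34 times that of its controls, 5.73 ± 3.71 (SD, n = 2). The log2 difference with NaB, 2.02 (SE 0.66), was 1.43 without control_NaB replicate 4 and 2.62 without control_NaB replicate 5. The libraries treated with TSA and with NaB overlapped in level, whereas both controls for NaB lay above all 3 controls for TSA.

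Tal1 (ENSRNOG00000025051), required for the formation of all blood lineages, had at most 3 reads in all 5 control libraries. Its normalized counts were 2.11, 3.09 and 0 in the controls for TSA and 81.6, 47.0 and 88.4 with TSA. NaB-treated cultures had 85.1 and 106, against 1.04 and 2.09 in their controls. The treated libraries of both drugs thus stood clear of all controls and overlapped with each other. The mean with TSA was 72.3 ± 22.2 (SD, n = 3), at least 23.0-fold higher than 3 reads, and the mean with NaB was 95.6 ± 14.8 (SD, n = 2), at least 30.6-fold higher. The log2 difference was 4.92 (SE 0.51) with TSA and 5.26 (SE 0.62) with NaB, exceeded by 63 and 38 of the tested genes. Without control_TSA replicate 3 the value with TSA was 4.31.

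Gata4 (ENSRNOG00000010708), a factor of heart and gut endoderm, had at most 1 read in every control library. Its normalized counts were 33.8, 7.24 and 42.7 with TSA and 31.2 and 40.5 with NaB. Replicate 2 of TSA was far below the other treated libraries, at 8 reads. The mean with TSA was 27.9 ± 18.5 (SD, n = 3), at least 8.86-fold higher than 3 reads. The log2 difference with TSA, 4.19 (SE 0.64), was 4.94 without TSA replicate 2. With NaB the mean was 35.8 ± 6.58 (SD, n = 2), at least 11.5-fold higher.

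Gata6 (ENSRNOG00000023433), which acts with Gata4 in heart and endoderm, had normalized counts of 3.16, 1.03 and 1.07 in the controls for TSA and 11.3, 22.6 and 22.3 with TSA. NaB-treated cultures had 14.2 and 36.6, against 1.04 and 7.31 in their controls. No treated library overlapped with its controls, but these were the smallest changes of the 5 genes with TSA. The mean with TSA, 18.7 ± 6.48 (SD, n = 3), was at least 5.95-fold higher than 3 reads, and the mean with NaB, 25.4 ± 15.9 (SD, n = 2), was 6.09 times that of its controls, 4.17 ± 4.44 (SD, n = 2). The log2 difference with NaB, 2.54 (SE 0.73), was 1.52 without control_NaB replicate 4 and 3.55 without control_NaB replicate 5.

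**Figure D2:**
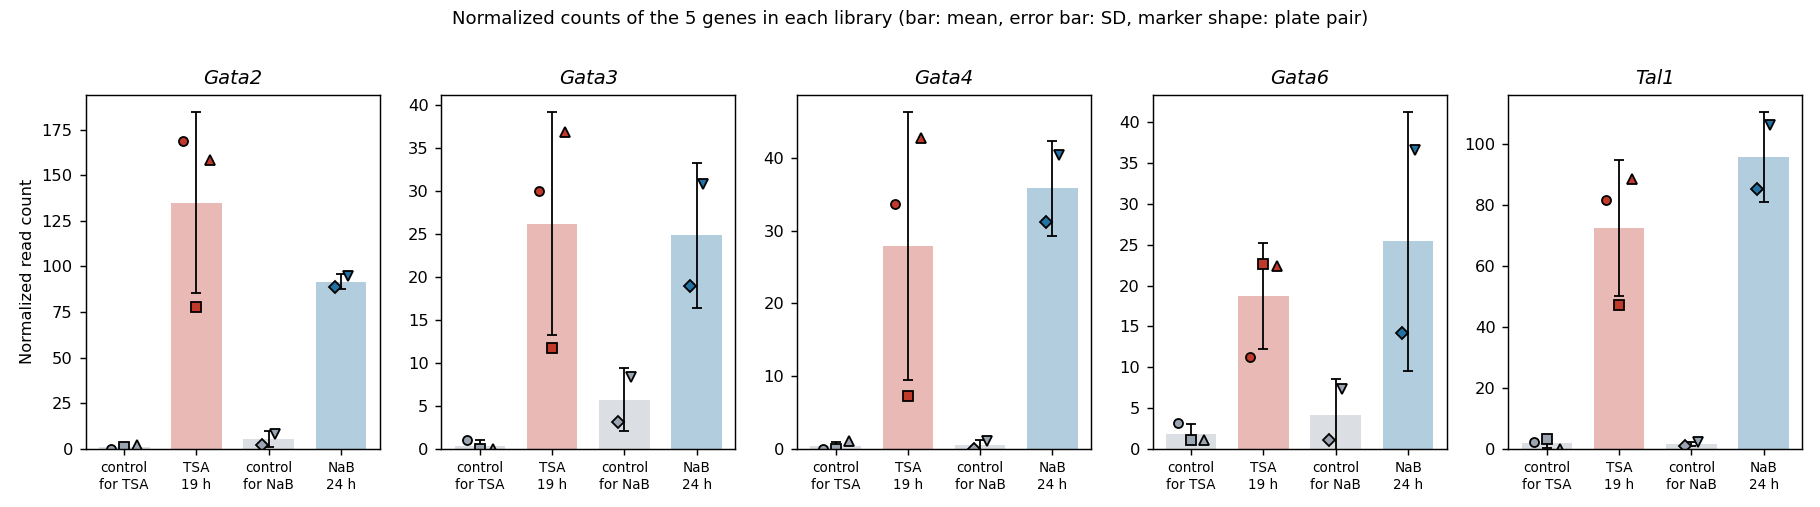
Normalized counts of the 5 genes (y axis) in each of the 10 libraries, by group (x axis), with a point for each library a bar for the mean of the group, an error bar for the SD and the marker shape for the plate pair. Every treated library lies above every control of its own experiment for all 5 genes, and replicate 2 of TSA is the lowest treated library for Gata2, Gata3, Gata4 and Tal1.

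In all 5 genes, each treated library exceeded each control, as it did for 33.1% of all tested genes with TSA and 40.2% with NaB. Upward calls (limma, adjusted p under 0.05 and a log2 difference of at least 0.5) made up 22.5% of all tested genes with TSA and 21.2% with NaB, and downward calls 19.7% and 20.3%. Scaling by library totals moved this split from 3540 up and 3104 down to 4675 and 2166 with TSA, and from 3337 and 3184 to 3923 and 2576 with NaB. Since the members were picked for this response, no p is given for them and nothing is read from their count. Their median log2 difference was 4.28 with TSA and 4.11 with NaB, beside medians of 0.022 and 0.020 over all tested genes, which library totals moved to 0.20 and 0.13. The Gata3 differences were exceeded by 122 tested genes with TSA and 895 with NaB. For Gata4 these numbers were 133 and 80, and for Gata6 466 and 598. Nothing is read from these ranks or from those of Gata2 and Tal1. The median of the members was 6.12 with TSA and 4.14 with NaB by DESeq2, and 2.45 and 2.88 with a pseudocount of 5. With TSA it was 4.94 without TSA replicate 2, and with NaB it was 3.31 without control_NaB replicate 4 and 4.91 without control_NaB replicate 5. As folds, with lower bounds taken where controls had at most 3 reads, the median was at least 8.86 with TSA and at least 11.5 with NaB. Among the 7677 genes of the table with at most 3 reads in each control for TSA, 193 (2.51%) had at least 10 reads in each TSA library, and 4 of the 5 genes were among them, all but Gata4. For NaB the corresponding count was 255 of 7745 genes (3.29%), and it held Gata4 and Tal1, since the other 3 genes exceeded 3 reads in a control for NaB. Replicate 2 of TSA was the lowest of the 3 TSA libraries for 4 of the 5 genes. The thresholds were passed upward with TSA by 335 tested genes that had at most 3 reads in each control. Of these, replicate 2 was the lowest for 191 (57.0%), replicate 3 for 100 (29.9%) and replicate 1 for 44 (13.1%).

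**Figure D3:**
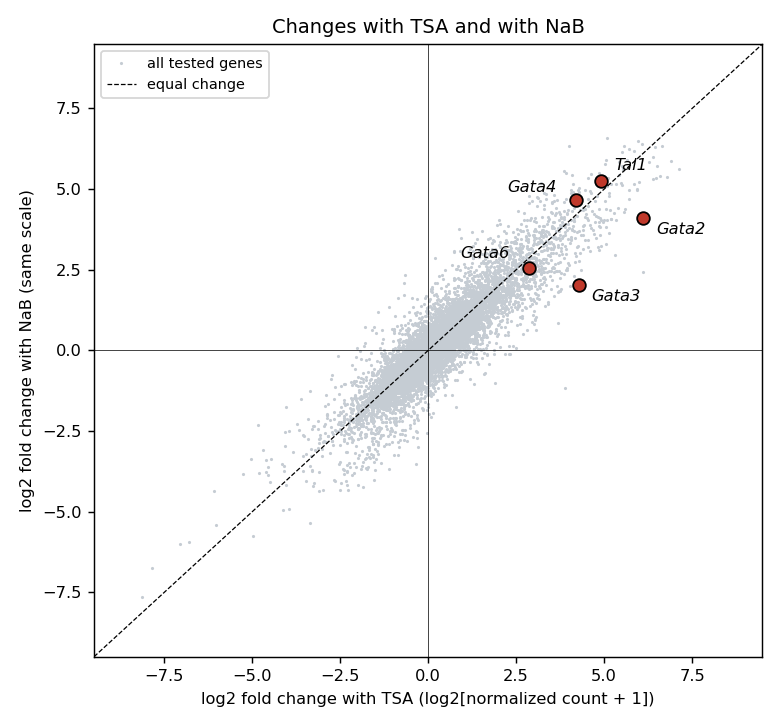
Log2 fold change with TSA (x axis) against that with NaB (y axis), each against its own controls on the log2(normalized count + 1) scale, with grey points for all 15717 tested genes and red points for the members. Gata2 and Gata3 lie below the dashed line of equal change and Gata4 and Tal1 lie above it, but no member's distance from the line passed the test.

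Whether the genes responded more to one drug than to the other was tested by the contrast between the changes. The log2 change with NaB was lower than that with TSA by 2.01 for Gata2 (difference -2.01, SE 0.82, 95% interval -3.83 to -0.18, limma adjusted p = 0.354). For Gata3 the difference was -2.26 (SE 0.85, 95% interval -4.13 to -0.38, limma adjusted p = 0.309). Across the alternative settings the adjusted p ranged from 0.153 to 0.649 for Gata2 and from 0.121 to 0.610 for Gata3. Without control_NaB replicate 5 the differences were -1.20 and -1.66, and without control_NaB replicate 4 they were -2.81 and -2.85. For Tal1 the difference was 0.34 (95% interval -1.44 to 2.11), for Gata4 0.49 (-1.76 to 2.73) and for Gata6 -0.33 (-2.42 to 1.77), with adjusted p of 0.904, 0.886 and 0.924 by limma. None of the 5 passed. Of all tested genes 47 (0.299%) passed, or 404 when the plate pairs were used as a block. At an unadjusted p under 0.05 there were 1978 genes (12.6%), Gata2 and Gata3 among them. The intervals span changes of several-fold in either direction for Tal1, Gata4 and Gata6, so that a like response to both drugs is not shown. The members had few reads in every control and passed the filter only through the treated libraries. Their differences between the drugs moved with the method and the pseudocount. This test could therefore decide little for them, and the shares of all tested genes are not read as a result.

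The control groups were compared in the same way. Gata3 was higher in the controls for NaB than in those for TSA by 2.29 on the log2 scale (SE 0.60, 95% interval 0.96 to 3.61), and limma gave an adjusted p of 0.0784, with a range of 0.0578 to 0.384 over the alternatives. The difference was 1.53 for Gata2 (SE 0.58, 95% interval 0.24 to 2.82, limma adjusted p = 0.185). For Gata6, Gata4 and Tal1 it was 0.66, 0.17 and 0.10, with limma adjusted p of 0.627, 0.924 and 0.942. None of the 5 passed, while 243 (1.55%) of all tested genes did. Without control_NaB replicate 5 the value was 1.69 for Gata3 and 0.73 for Gata2, and without control_NaB replicate 4 it was 2.88 and 2.34. In replicate 5 Gata2, Gata3 and Gata6 had 8, 8 and 7 reads, against 2, 3 and 1 in the other control for NaB. Over the whole table, 589 genes exceeded 3 reads in this library but not in the other, and 574 did the reverse. The controls for NaB enter both this contrast and the one between the drugs, with opposite sign, so these are not independent results. With 0 to 8 reads in every control, the members passed the filter (minimum count 10) only through the treated libraries. The test between the control groups could therefore decide little for them. Nothing is read from its outcome or from the share of all tested genes beside it.

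**Figure D4:**
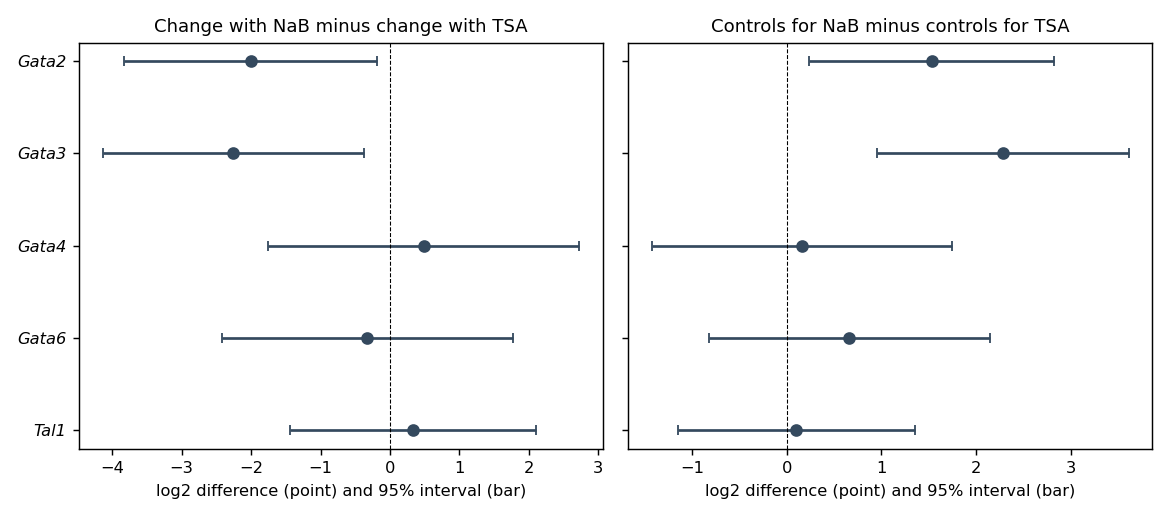
Difference between the changes with NaB and with TSA (left panel) and between the controls for NaB and for TSA (right panel) for each member, as log2 differences on the x axis (points) with 95% intervals (bars). Gata2 and Gata3 lie at -2.01 and -2.26 on the left and at 1.53 and 2.29 on the right, and none of the 10 values passed the adjusted threshold.

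Genes that are known to work with the members were described from lists of partners, targets and lineages. Gene symbols could be paired with identifiers only through the rows at hand of the study's table of changed genes. All of these were reported as higher with an inhibitor, not necessarily with both. Only 33 of 165 listed genes thus had an identifier, and these too had been selected by their response. Of the 29 that passed the filter on low counts, 26 passed the thresholds upward with TSA and 26 with NaB, and none downward. This selection favours such a count, which is not read further. The selection did not use the difference between the drugs or that between the controls, but it rests on the same libraries. None of the 29 passed in either contrast. The lowest limma adjusted p was 0.294 for Lhx3 between the drugs and 0.0755 for En1 between the controls. Both were named after their values were seen. An unadjusted limma p under 0.05 was reached by 4 and 6 of the 29, beside 12.6% and 19.4% of all tested genes. Sox14, Lmx1b and Hand2 had no read in any control, and Fev, Nkx2-5 and Tbx20 had at most 1 in each. These genes passed the filter only through treated libraries and had little or no room to differ between the controls. The count between the controls is therefore not read as a result. The count between the drugs is not read either, since the genes were selected by their response to the drugs.

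Zfpm1, which encodes the Gata cofactor Fog1 and was the 1 of 2 FOG genes with an identifier, was well expressed already in controls. Its normalized counts were 337, 313 and 368 in the controls for TSA and 2047, 1831 and 2098 with TSA. NaB-treated cultures had 1686 and 1397, against 325 and 272 in their controls. The groups did not overlap, with log2 differences of 2.55 (SE 0.11) and 2.36 (SE 0.13). Unlike for the Gata genes, its control values rest on well over 3 reads in every library.

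Of the 19 partners and relatives of Tal1, Runx1 and Erg had an identifier. Runx1, a blood stem cell factor, had a mean of 22.1 ± 4.15 (SD, n = 3) in the controls for TSA and 62.0 ± 9.01 (SD, n = 3) with TSA, a log2 difference of 1.45 (SE 0.26). With NaB it was at 34.7 and 55.8 against 24.0 and 31.1, a log2 difference of 0.67 (SE 0.31) that missed the threshold. Erg, an ETS factor of endothelium and blood, was below the filter on low counts, with means of 6.92 ± 2.17 (SD, n = 3) with TSA and 7.16 ± 0.776 (SD, n = 2) with NaB and at most 1 read in every control. Lmo2, Ldb1 and the E-protein genes were not analysed here.

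Of 29 erythroid and megakaryocyte genes, 4 had an identifier, and 3 passed the thresholds upward with TSA and 4 with NaB, with median log2 differences of 1.63 and 2.62. Rhd, which encodes the Rh blood group antigen, had means of 2.82 ± 2.24 in the controls for TSA, 33.5 ± 8.90 with TSA (SD, n = 3 each), 4.68 ± 0.763 in the controls for NaB and 47.7 ± 2.03 with NaB (SD, n = 2 each). Epor, the erythropoietin receptor, had means of 8.41 ± 1.12 and 34.2 ± 6.32 for TSA and of 4.69 ± 2.23 and 35.8 ± 5.57 for NaB. Slc4a1, the anion exchanger of the red cell membrane, reached 6.29 ± 1.64 with TSA and 10.5 ± 0.148 with NaB. The globin genes on the list had no identifier at hand.

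The list of V2 interneuron and midbrain GABAergic neuron genes is not limited to the inhibitory neurons in which Gata2, Gata3 and Tal1 act. Of its 13 genes, 5 had an identifier. All 4 that passed the filter passed the thresholds upward with both drugs, with median log2 differences of 2.39 and 2.16. Sox14, a transcription factor gene of this list, had no read in any of the 5 controls. Its normalized counts were 55.3, 16.3 and 41.8 with TSA and 39.7 and 39.5 with NaB, at least 12-fold and 12.7-fold higher than 3 reads. Replicate 2 of TSA was again the lowest. Slc6a5, the glycine transporter of inhibitory neurons, had log2 differences of 2.47 (SE 0.35) and 2.17 (SE 0.43), and Lhx4, a LIM homeobox gene of spinal interneurons and motor neurons, had 2.32 (SE 0.23) and 1.73 (SE 0.28).

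Of 7 serotonergic transcription factor genes, 4 had an identifier, and all 4 passed upward with both drugs, with median log2 differences of 3.57 and 3.20. Lmx1b had no read in any control, and reached 78.2 ± 20.0 with TSA (SD, n = 3) and 58.4 ± 18.4 with NaB (SD, n = 2), at least 24.8-fold and 18.7-fold higher than 3 reads. Fev, the ETS factor that defines serotonergic neurons, had at most 1 read in each control and reached 29.6 ± 9.97 and 36.7 ± 8.26, at least 9.39-fold and 11.8-fold higher. En1 was detected in all controls, with a mean of 6.65 ± 0.490 for TSA and 15.1 ± 0.645 for NaB, and reached 46.2 ± 9.68 and 48.2 ± 6.75.

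**Figure D5:**
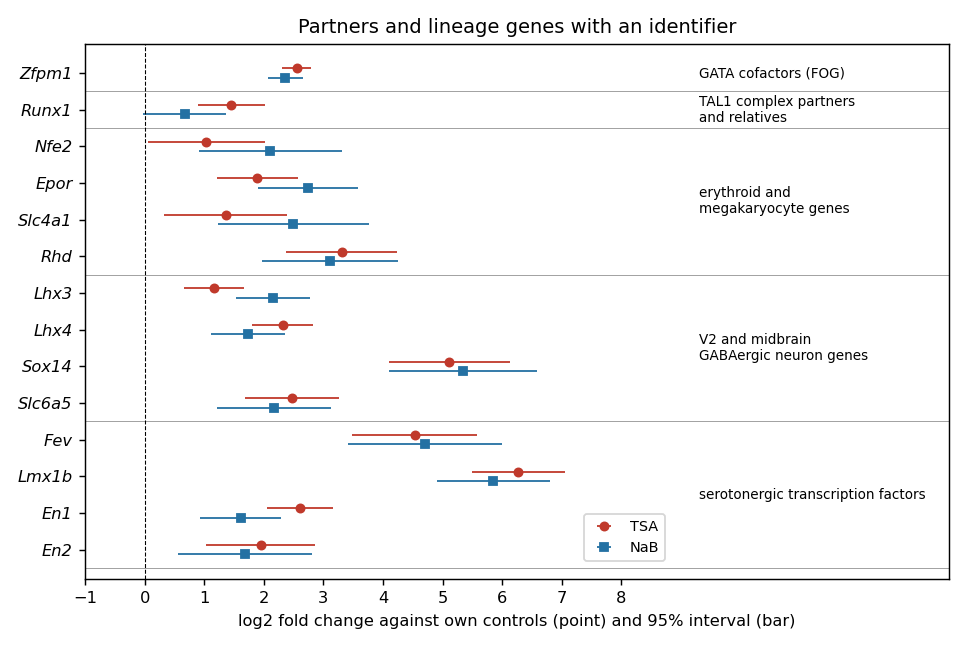
Log2 fold change against own controls (x axis) with TSA (red circles) and NaB (blue squares) for the tested genes with an identifier from the lists of cofactors, Tal1 partners, erythroid and megakaryocyte, V2 and midbrain GABAergic, and serotonergic genes, with 95% intervals as bars and 1 gene per row. Lmx1b, Sox14 and Fev show the largest values among the genes of these 5 lists, and the interval of Runx1 with NaB reaches 0.

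Gata and Tal1 genes are also active in endothelium, blood and mast cells, whose markers were listed for that reason. Of 10 endothelial markers, Kdr, Flt1 and Vwf had an identifier, and all 3 passed upward with both drugs, with median log2 differences of 2.53 and 1.93. Kdr and Vwf, which encode a growth factor receptor and a clotting protein of endothelium, had log2 differences of 2.53 (SE 0.32) and 1.77 (SE 0.34) with TSA and of 1.27 (SE 0.40) and 1.93 (SE 0.42) with NaB. Flt1, a receptor for vascular endothelial growth factors, went from 2.46 ± 1.24 to 97.4 ± 11.9 with TSA (n = 3 each) and from 4.15 ± 1.45 to 82.2 ± 10.6 with NaB (n = 2 each), all as mean ± SD. Of the reads of these 3 genes, Kdr had the most over all 10 libraries together and Flt1 the most with NaB. Their summed count was 45.4, 33.0 and 32.0 in the controls for TSA and 272, 223 and 287 with TSA. NaB-treated cultures had 204 and 235, against 37.3 and 63.7 in their controls. These 3 markers, whose identifiers came through the table of genes reported as higher, had larger sums in the same libraries as the Gata and Tal1 genes, which says nothing of the other 7, and their part in the result was not tested. Cdh5, Pecam1 and the other 5 endothelial markers and all 8 mast cell markers had no identifier. Of 12 microglia markers only Tmem119 had one, and its log2 difference was 0.48 (SE 0.53) with TSA, which missed the threshold, and 2.51 (SE 0.65) with NaB, which passed. Of 8 fibroblast and pericyte markers, 4 had an identifier, of which 3 passed upward with TSA (Rgs5, Kcnj8 and Abcc9, with log2 differences of 2.75, 2.52 and 1.85) and 2 with NaB (Rgs5 and Kcnj8, with 2.59 and 2.09). With the plate pairs as a block, Abcc9 and Col1a1 also passed with NaB. These genes too had been selected by their response, so no p is given for them. In control_TSA replicates 1 and 3 the summed count of the 4 fibroblast and pericyte markers, mostly Col1a1, was 940 and 1395. It was 62.8 in replicate 2, and 208 and 177 in the controls for NaB. It was 904, 778 and 973 with TSA and 1037 and 1092 with NaB, and its part in the result was not tested.

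The genes that lie next to the members were examined by their order in the RefSeq annotation. Among the 2 nearest protein-coding genes on each side of each member, 28 in all, none had an identifier. With 5 on each side, 5 of 70 neighbours had one, and 4 of these passed the filter. Foxd2, a forkhead factor gene 4 genes from Tal1, had at most 1 read in each control and normalized counts of 70.3, 60.6 and 63.2 with TSA and 51.0 and 49.2 with NaB, at least 20.5-fold and 16.1-fold higher than 3 reads. Proser2, near Gata3, had log2 differences of 1.69 and 2.10, and Lama5, a laminin chain gene near Gata5, had 1.73 and 1.38. The other 2, named after their values were seen, went otherwise. Trabd2b, 5 genes from Tal1, had a log2 difference of 1.87 with TSA and -0.13 with NaB. Itih2, near Gata3 and below the filter, had means of 5.97 ± 2.27 in the controls for TSA and 2.13 ± 2.89 with TSA (SD, n = 3 each), and was at 0 in both controls for NaB and at 5.67 and 4.82 with NaB. The identifiers of all 5 neighbours were selected by reported response in the same way as those of the listed genes.

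The genes whose pattern over the 10 libraries was most like that of Gata2 were Myo1e, Dok1 and Irx3, with Pearson r of 0.994, 0.992 and 0.991. For Tal1 they were Egln3, Rasa4 and Ccnb1ip1, with r of 0.995, 0.994 and 0.993. These values describe a shared contrast between treated and control libraries, and 1729 of the tested genes had an r above 0.9 with Gata2 and 2078 with Tal1.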

How the data were processed

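RNA from 10 libraries was sequenced by the authors, who, per the submitters' processing notes, used STAR 2.7.9a, featureCounts 2.0.1, DESeq2 1.29 and the genome build Rnor_6.0. The deposited values (signal) are normalized counts, in which reads per gene were scaled by the size factor of the library. The strand setting is not given in the sources used here, so reads of overlapping or antisense genes cannot be told apart. The members and lists were chosen with earlier results of these data known.

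Reads were recovered by dividing by the lowest nonzero value of the library, after which 100% of values were whole within 0.001 read. Of 32883 genes, filterByExpr (minimum count 10) kept 15717. The test was limma 3.58.1 (R 4.3.3) on log2(normalized count + 1) with a trended prior variance, over all 4 groups in 1 fit, two-sided, with Benjamini-Hochberg adjustment over all tested genes and thresholds of 0.05 and 0.5 (adjusted p, absolute log2 difference). Alternatives were edgeR 4.0.16 and DESeq2 1.42.0 on the recovered reads, other filters, pseudocounts of 0.5 and 5, library totals, the plate pairs as a block, and each library left out. Fold changes on this scale understate changes of low genes. Folds against controls with at most 3 reads per library are lower bounds against 3 reads.

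Each treated culture had a control from its own plate, per the paper's methods. Deviations from the group means correlated at 0.284, 0.392 and 0.314 for the TSA pairs, numbered in the titles. They correlated at 0.342 for the NaB pairs, taken from consecutive library names. With 2 libraries in each NaB group, both pairs must give the same value, so this is a single value. The main test did not use the pairs. Within groups, chi-square per degree of freedom between libraries was 8.17 to 31.6, above counting noise.

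Symbols came from the identifier and symbol columns of the study's table of changed genes, in the rows that could be read here, which hold upregulated genes (1911 identifiers). Its fold changes and p-values were not used. Gata1 and Gata5 had no identifier there. Lists of other GATA-type zinc finger genes (5 genes), neuron, astrocyte and oligodendrocyte markers (6 each) and mast cell markers (8) had none either. Named were all members, the listed cofactors and Tal1 partners that passed a threshold, up to 3 genes with the largest change with TSA in each other list, neighbours that passed with both drugs, and the 3 most similar genes of Gata2 and Tal1. Erg, Lhx3, En1 between controls, and Tmem119 and Col1a1 as markers were added after their values were seen.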

Additional observations from a re-analysis of the deposited data

How the results depend on the processing

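The 5 members stayed above their controls with both drugs under every alternative that gave a value. A mean of at least 50 left only Gata2, and with the TSA libraries alone Gata4 did not pass the filter. None passed the test between the drugs or between the control groups under any alternative that gave an adjusted p. The size of their log2 differences moved. With TSA, DESeq2 gave 7.00, 6.12, 6.21, 3.42 and 5.37 for Gata2, Gata3, Gata4, Gata6 and Tal1, edgeR 6.83, 5.78, 5.87, 3.32 and 5.26, and a pseudocount of 5 gave 4.47, 2.45, 2.41, 1.79 and 3.51. With NaB, in the same order, DESeq2 gave 4.14, 2.12, 6.11, 2.61 and 5.94, and a pseudocount of 5 gave 3.31, 1.49, 2.88, 1.71 and 3.93. With 1 library left out, the values with NaB ranged from 3.31 to 4.91 for Gata2, 1.43 to 2.62 for Gata3, 4.16 to 5.19 for Gata4, 1.52 to 3.55 for Gata6 and 4.96 to 5.56 for Tal1. The values with TSA ranged from 5.67 to 6.50, 3.97 to 4.75, 3.73 to 4.94, 2.69 to 3.21 and 4.31 to 5.33 in the same order. Genes that passed between the drugs numbered 47, and 252 with DESeq2, 31 without a filter, 71 with library totals, 404 with the replicate block and 1 to 45 with 1 library left out. Between the control groups they numbered 243, and 583 with DESeq2, 104 without a filter and 22 to 461 with 1 library left out. Between the drugs, Gata2 and Gata3 were at -2.87 and -4.0 with DESeq2 and at -1.16 and -0.96 with a pseudocount of 5. Between the control groups they were at 2.31 and 3.93 with DESeq2 and at 0.70 and 0.97 with a pseudocount of 5. The cause of these shifts was not tested. Apart from Abcc9 and Col1a1 with NaB, the block changed no other call of a gene named here, and it cannot be used for the control groups, whose plates differ. The counts for TSA (6644, range 5202 to 6958) and for NaB (6521, range 5337 to 6950) and those of listed genes (26 each, range 24 to 30 and 22 to 28) moved by less than 1.5 times. With 2 neighbours on each side of the members no gene had an identifier, so nothing was measured there. With 5 on each side, 4 passed upward with TSA and 3 with NaB.

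Small differences changed sign. Between the drugs, Gata4 (0.49) was at -0.10 with DESeq2 and -0.081 with edgeR and between -0.26 and 1.00 with 1 library left out. The same ranges with 1 library left out were -1.34 to 0.69 for Gata6 and -0.068 to 0.95 for Tal1. Between the control groups, Tal1 (0.10) was at -0.16 with DESeq2, -0.15 with edgeR and -0.013 with a pseudocount of 5. With 1 library left out, the control difference ranged from -0.51 to 0.51 for Tal1, from -0.35 to 0.68 for Gata4 and from -0.35 to 1.68 for Gata6. Leaving out a library of NaB or its controls left a lone sample, assumed to vary like the other groups. DESeq2 gave no adjusted p for Gata3, Gata4 and Gata6 between the drugs. With 0 to 8 reads in controls, differences between control levels of the members rest on few reads, and p-values measure the spread between these libraries.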

Other observations

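Genes of heart and endoderm, the tissues of Gata4 and Gata6, were listed as well. Of 22, 8 had an identifier, and all 6 that passed the filter passed the thresholds upward with both drugs. Their median log2 differences were 3.30 and 3.33. The selection of identifiers by response favours such a count. Nkx2-5, a homeobox factor of heart precursors, had at most 1 read in every control, and reached 72.2, 36.2 and 59.3 with TSA and 137 and 133 with NaB. Both NaB libraries lay above all TSA libraries, and the difference between the drugs did not pass (limma adjusted p = 0.404). Hand2, a basic helix-loop-helix factor of heart and sympathetic neurons, had no read in any control and reached 12.8 ± 3.61 with TSA (SD, n = 3) and 17.7 ± 0.426 with NaB (SD, n = 2). Foxa1, a forkhead factor of endoderm, had log2 differences of 3.40 (SE 0.76) and 4.00 (SE 0.93).

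Of 12 genes of T cells and innate lymphoid cells, Tbx21, a factor of type 1 helper T cells, had an identifier. Its mean was 29.6 ± 10.2 with TSA (SD, n = 3) and 29.1 ± 1.61 with NaB (SD, n = 2), against 1.76 ± 2.19 and 1.56 ± 0.744 in the respective controls.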
